A study of Mus musculus with 3 samples.

Results

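The transcripts of the RNA exosome, the multisubunit nuclease that degrades RNA from its 3′ end, were followed in a YTHDF2 RNA immunoprecipitation sequencing (RIP-seq) experiment. They were chosen by name as Exosc1 to Exosc10, and all 10 were present among the 49997 genes of the count table. The cells were E14 mouse embryonic stem cells (ESCs) treated with doxycycline (Dox) for 24 h. The methods of the study name a tdTomato reporter under the MERVL promoter in its ESCs. A Dox-inducible Dux transgene, through which Dox moves part of a culture toward a state resembling the 2-cell embryo, is described for the ESCs profiled for m6A, and the text on RIP-seq speaks of cells with active DUX. All libraries shared this background and treatment, namely 1 input library of total RNA and 2 libraries of RNA recovered with an antibody against YTHDF2 (replicates 1 and 2, written IP 1 and IP 2). The input had no replicate, no control-antibody IP was analysed here, and nothing says whether the 2 IP libraries came from separate cultures. The p-values therefore measure only the spread between the 2 IP libraries, which may be technical.

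The exosome is built around a barrel without catalytic activity of its own. A ring of RNase PH-like proteins (EXOSC4 to EXOSC9) is topped by a cap of RNA-binding proteins with S1 and KH folds (EXOSC1, EXOSC2 and EXOSC3), and RNA is threaded through the barrel to the nuclease DIS3 at its base. EXOSC10, the mammalian RRP6, is a second nuclease that joins the complex mainly in the nucleus. In the cytoplasm the exosome degrades mRNA bodies after the poly(A) tail has been shortened, and in the nucleus it trims ribosomal and small nucleolar RNA precursors and removes promoter transcripts. YTHDF2 is a reader of N6-methyladenosine (m6A) that shortens the life of the mRNAs it binds, in large part by recruiting the CCR4-NOT deadenylase. The question addressed here is which exosome mRNAs were themselves recovered with YTHDF2.

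The subunit transcripts did not behave as a unit. Exosc6, a ring subunit, was enriched 8.94-fold in YTHDF2 IP. Exosc4, another ring subunit, and Exosc1, a cap subunit, were each enriched about as strongly as one another, at 2.22-fold and 2.21-fold. Exosc9, which encodes the ring subunit that pairs with EXOSC4, was depleted 3.9-fold. The other 6 lay within 2-fold of the input. Transcripts were called at a Benjamini-Hochberg adjusted p-value under 0.05 over all genes tested and a fold change over 2 in the quasi-likelihood test of edgeR. By that rule 3 of the 10 were enriched and 1 of the 10 was depleted, while 15.0% of all 19601 genes tested were enriched and 13.0% were depleted (28.0% in either direction). These shares of a short list were not tested against the background. At any fold, 4 of the 10 were higher in IP and 5 of the 10 were lower at an adjusted p-value under 0.05, against 28.4% and 28.9% of all genes. The median log2 fold change of the 10 was −0.225, compared with 0.0063 over all genes tested. Scaling to TPM, which moved the all-gene median up by 0.151 on the log2 scale, left the same counts of 3 and 1 among the exosome transcripts. The counts became 1 enriched and 1 depleted with the dispersion set to 0.1, and 2 and 2 when a trend on exonic GC content was removed. With scaling to TPM, 64.0% of all calls were enrichments, compared with 53.6% here.

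**Figure D1:**
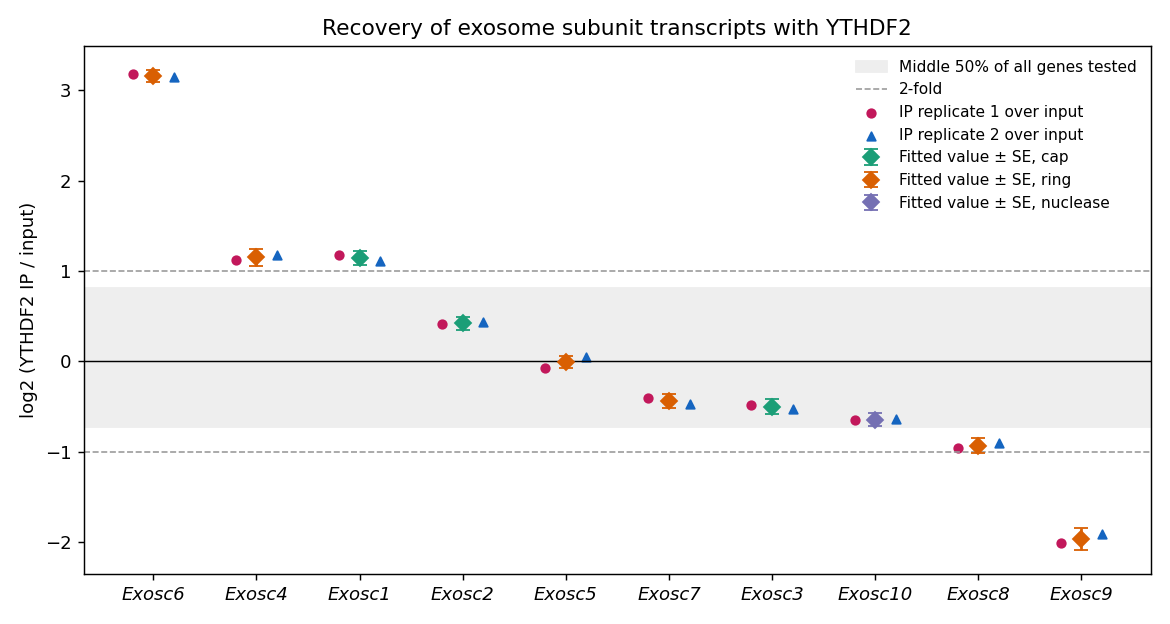
Log2 ratio of YTHDF2 IP to input (vertical axis) for each exosome subunit transcript, ordered by the fitted value. Diamonds are fitted values with their SE, circles and triangles are IP replicates 1 and 2 over the input, the grey band holds the middle 50% of all genes tested, and dashed lines mark a 2-fold difference. Exosc6, at 3.16, stands above all others, and Exosc9, at −1.96, below.

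The stretches of sequence that follow are shown because they place the core m6A motif, GGACT in DNA letters, in the most and the least recovered transcripts. They were read by a script from GRCm38.p6, the assembly of mm10, along the RefSeq Select transcript of each gene, on the transcribed strand only. Capitals mark the motif, and positions count from base 1 of the transcript. Exosc6 held 4 matches, 1 of them coding and the others in the 3′ UTR. Of the 5 matches in Exosc4, the one shown runs into the stop codon, whose first base is the final T of the motif. Exosc9 held 2 matches, in the 5′ UTR and in the coding region.
Exosc6 at position 402, coding, chr8:111056732-111056752, plus strand: gcgagctgGGACTggcgctac
Exosc6 at position 885, chr8:111057215-111057235, plus strand: ggattcgaGGACTgctatcgc
Exosc6 at position 1084, chr8:111057414-111057434, plus strand: gttggaaaGGACTtgggctgg
Exosc6 at position 1211, chr8:111057541-111057561, plus strand: ggaccaggGGACTttgccttc
Exosc4 at position 828, chr15:76329701-76329721, plus strand: tcactgggGGACTgagtggca
Exosc9 at position 38, chr3:36552635-36552655, plus strand: cggtgtgcGGACTtgtctcgg
Exosc9 at position 1075, coding, chr3:36563085-36563105, plus strand: tgtgctgtGGACTcctggaac
A match is a description of the letters and not a measured m6A site, and counts per gene do not say where on a transcript YTHDF2 was bound.

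Among the ring subunits, Exosc6 (chromosome 8, 111056339 to 111057664, plus strand, mm10) encodes MTR3. The input held 2310 of its reads, IP 1 held 21355 and IP 2 held 21102. Both IP libraries lay far above the input and close to each other, without overlap. The log2 fold change was 3.16 ± 0.065 (SE, n = 2 IP libraries, edgeR adjusted p = 2.3e-31), at the 97.9th percentile of all genes tested. The value fell to 2.10 without the GC trend, and the call held under every alternative with a test. Per length, Exosc6 went from 96.9 TPM in the input to 976 and 945 TPM in the IP libraries.

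Exosc4 (chromosome 15, 76327397 to 76330670, plus strand) encodes RRP41. Its input count of 1141 rose to 2542 in IP 1 and 2677 in IP 2, so both IP libraries were higher. The log2 fold change was 1.15 ± 0.093 (SE, edgeR adjusted p = 1.47e-13). This is close to the 2-fold threshold, and at 0.858 without the GC trend the transcript was not called. Of its exonic length, 13.2% overlaps exons of Oplah on the other strand, where reads are left out by the default of the counting tool.

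Exosc9 (chromosome 3, 36552606 to 36565727, plus strand) encodes RRP45, known as the autoantigen PM/Scl-75. Its input count of 1643 compared with 415 in IP 1 and 452 in IP 2. Both IP libraries were lower, and the log2 fold change was −1.96 ± 0.12 (SE, edgeR adjusted p = 7.33e-17). It lay at the 4.79th percentile of all genes tested. The call held under every alternative with a test, with values from −1.64 to −1.96. Exons of Ccna2, which encodes cyclin A2 and had 8701 counts in the input, cover 23.4% of its exonic length from the other strand. By the same default, reads in that stretch go to neither gene, and the part of this overlap in the result was not tested.

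The remaining ring subunits lay between these. Exosc8 (chromosome 3, 54728679 to 54735364, minus strand), which encodes RRP43, was counted 2823 times in the input, 1480 in IP 1 and 1563 in IP 2. It fell by 0.93 on the log2 scale in IP (SE 0.088), just inside the fold threshold, and reached −1.11 and a call for depletion without the GC trend. Exosc7 (chromosome 9, 123113231 to 123136129, plus strand), which encodes RRP42, was counted 3091 times in the input, 2378 in IP 1 and 2302 in IP 2, a log2 fold change of −0.44 ± 0.078 (SE). Both were lower in each IP library (edgeR adjusted p = 8.3e-12 for Exosc8 and 6.41e-06 for Exosc7). Exosc5 (chromosome 7, 25659153 to 25668032, plus strand), which encodes RRP46, was the most counted subunit in the input, at 7071, with 6877 in IP 1 and 7585 in IP 2. After scaling, its IP libraries lay on either side of the input, and its log2 fold change was −0.008 ± 0.063 (SE, edgeR adjusted p = 0.925). The sign depended on the scaling, since it was 0.088 with library totals and 0.14 with scaling to TPM (edgeR adjusted p = 0.0417). It was −0.755 without the GC trend (edgeR adjusted p = 3.13e-13).

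The cap subunits were also split. Exosc1 (chromosome 19, 41922978 to 41933423, minus strand) encodes CSL4. From 1937 in the input, its count rose to 4461 in IP 1 and 4325 in IP 2. Both IP libraries were higher, and the log2 fold change was 1.14 ± 0.077 (SE, edgeR adjusted p = 8.58e-16). Exosc2 (chromosome 2, 31670715 to 31681352, plus strand), which encodes RRP4, went from 2791 in the input to 3783 in IP 1 and 3908 in IP 2, a 1.34-fold rise after scaling. Exosc3 (chromosome 4, 45316613 to 45320616, minus strand), which encodes RRP40, moved the other way, from a count of 2819 in the input to 2064 in IP 1 and 2024 in IP 2, 1.42-fold lower. Neither reached 2-fold (edgeR adjusted p = 4.98e-06 for Exosc2 and 1.56e-06 for Exosc3).

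The nuclear nuclease Exosc10 (chromosome 4, 148558419 to 148582401, plus strand) was counted 3773 times in the input, 2449 in IP 1 and 2517 in IP 2. It was lower in both IP libraries, and the log2 fold change was −0.64 ± 0.074 (SE, edgeR adjusted p = 1.18e-09). The annotation behind the counts lists Exosc10 on 2 sequences, chromosome 4 and an alternate scaffold of it. Its length in the table, 7629 bases, therefore covers both copies, and 4439 bases of merged exons on chromosome 4 were used here for its TPM. Whether reads were lost by mapping to both was not tested.

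The IP libraries were close to each other for these genes. The median difference between them was 0.056 on the log2 scale over the 10 transcripts, and 0.146 over all genes tested. In the order of log2 fold changes, Exosc6, Exosc4, Exosc1, Exosc2, Exosc5, Exosc7, Exosc3, Exosc10, Exosc8 and Exosc9, only the neighbours Exosc4 and Exosc1 had overlapping values in single IP libraries. Exosc7 and Exosc3 were 0.062 apart, which is within 1 SE of either. The small p-values rest on this closeness. When the dispersion was set to 0.1 instead of being estimated, Exosc6 and Exosc9 kept their calls (edgeR adjusted p = 0.000129 and 0.00495), whereas Exosc1 and Exosc4 lost theirs (0.174 and 0.17). The smaller shifts of Exosc2, Exosc3, Exosc7, Exosc8 and Exosc10 then also missed the threshold, with adjusted p between 0.238 and 0.661.

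**Figure D2:**
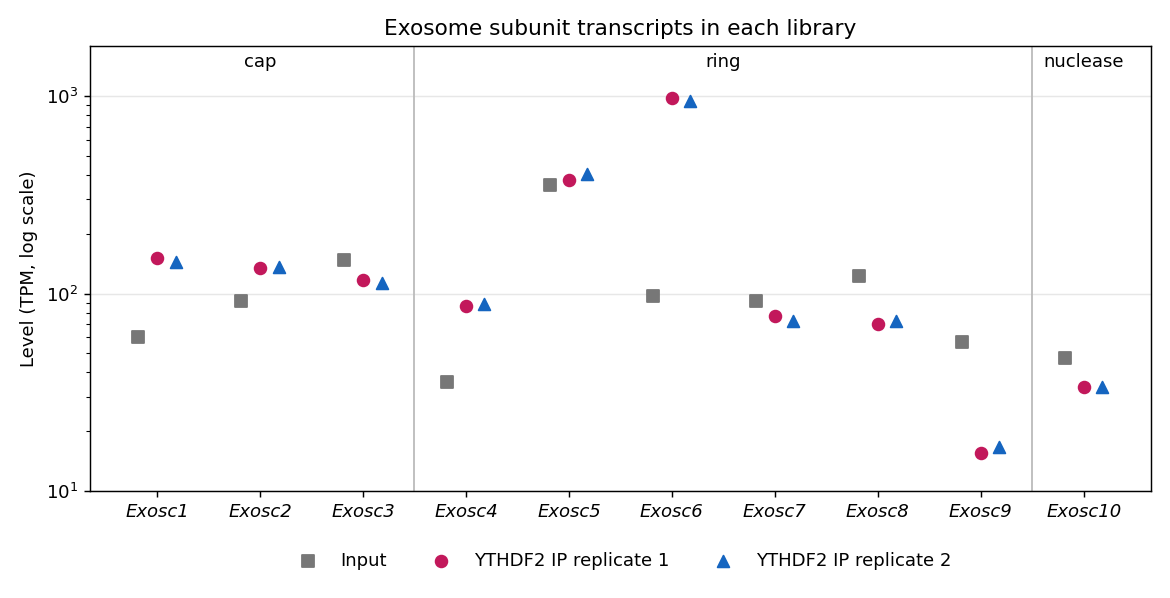
Level of each exosome subunit transcript in TPM (vertical axis, log scale) in the input (squares) and in IP replicates 1 (circles) and 2 (triangles), with 1 point a library and no averaging. In the input the levels run from 35.5 to 354.5 TPM, and in the IP libraries Exosc6 lies highest and Exosc9 lowest.

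The relative levels of the subunits were wider apart in the RNA recovered with the YTHDF2 antibody. In the input, per length, Exosc5 was highest, at 354.5 TPM, and Exosc4 lowest, at 35.5 TPM, which is a 9.99-fold range. In IP 1 the range was 62.8-fold, from 15.6 TPM for Exosc9 to 976 TPM for Exosc6, and in IP 2 it was 56.9-fold. As a share of all counts, the 10 transcripts together made up 0.0795% in the input, with a 95% Wilson interval from 0.0786 to 0.0804. They made up 0.136% in IP 1, between 0.134 and 0.137, and 0.135% in IP 2, between 0.134 and 0.136. The part of the exosome counts that belonged to Exosc6 was 7.86% before IP and 44.7% and 43.5% after it. Without Exosc6, the other 9 took 0.0732% of the input and 0.0750% and 0.0762% of the IP libraries, so most of the gain came from 1 gene. These intervals cover counting error only, since PCR copies are not independent molecules. The RNA came from whole cultures, in which fewer cells of a type and less RNA per cell cannot be told apart.

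The gene structures of the subunits differ, and their order was set beside the order of recovery. Exosc6 is the only one with a single exon, of 1326 bases, and with 64.9% GC it lies at the 99.5th percentile of GC among all genes tested. In all the others but Exosc8 and Exosc10, whether higher or lower in IP, the longest exon is the last one, and the stop codon lies in the last exon of all 10. Among those that rose, this exon is 1315 bases in Exosc4, 1109 in Exosc1 and 863 in Exosc2, longer than in the remaining subunits but not long among tested Select transcripts, where the 4 lie between the 32.9th and 49.2nd percentiles. In the 6 transcripts at or below the input, the longest exon is between 191 bases (Exosc10, of 25 exons) and 416 bases (Exosc3), between the 1.01st and 12.2nd percentiles. The 3′ UTR showed the same split, at 472 to 1002 bases in the 4 transcripts that rose and 87 to 240 bases in the other 6, with a Spearman rho with the log2 fold change of 0.77. Across the 15011 tested genes with a Select transcript rho was 0.0053, with a share enriched that rose up to 1000 bases and was lower beyond. Across the 10 transcripts the Spearman rho of the longest exon with the log2 fold change was 0.794. Across the same 15011 genes it was 0.111. All are descriptions over genes that share the same 3 libraries. The counts cover all annotated exons of a gene, while the structures come from its Select transcript. Merged exons exceed that transcript most in Exosc7 (1879 bases against 1037) and Exosc10 (4439 against 2800).

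**Figure D3:**
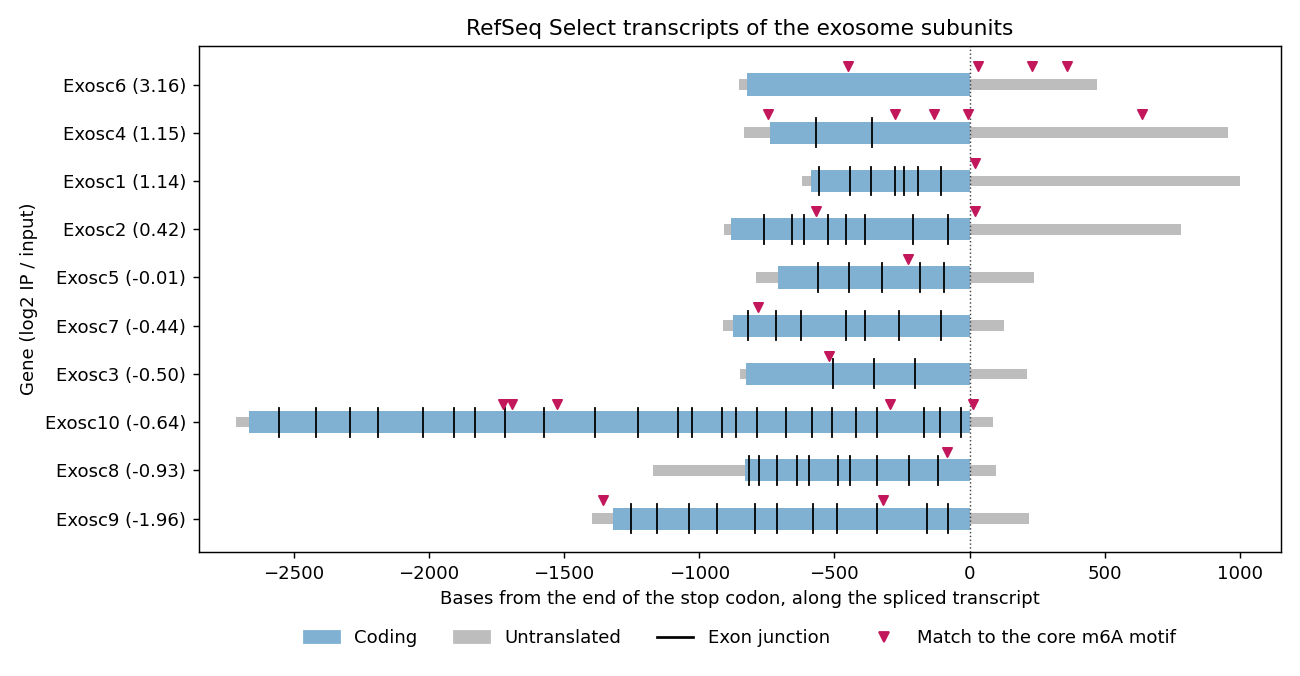
RefSeq Select transcripts of the exosome subunits, drawn to scale along the spliced RNA and aligned at the end of the stop codon (horizontal axis, bases), ordered by log2 ratio of IP to input (in brackets). Blue is coding, grey is untranslated, black lines are exon junctions and triangles are matches to the core m6A motif. The upper 4 transcripts have 3′ UTRs of at least 472 bases, and the lower 6 of at most 240 bases.

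The tested genes with a Select transcript give the background for these structures. Among the 473 tested Select genes with a single exon, 35.3% were enriched and 3.38% depleted, and Exosc6 stood at the 93.2nd percentile of log2 fold change in that class. Among the 1811 genes with 2 to 3 exons, the class of Exosc4, 36.8% were enriched. Among the 5916 genes with 4 to 9 exons, which hold Exosc1, Exosc2, Exosc3, Exosc5 and Exosc7, 16.9% were enriched and 11.3% depleted. Among the 6811 genes with 10 or more exons, the class of Exosc8, Exosc9 and Exosc10, 6.86% were enriched and 16.5% depleted. Genes whose longest exon was under 300 bases, such as Exosc9, Exosc7 and Exosc10, were enriched in 2.56% of 898 cases and depleted in 12.5%, with a median log2 fold change of −0.424. The values of Exosc9, Exosc10 and Exosc7 were all below that median, that of Exosc7 (−0.441) only just. From 300 to under 500 bases, the class of Exosc3, Exosc5 and Exosc8, 6.85% were enriched and 13.9% depleted. The classes of the subunits that rose lay near the 15.0% and 13.0% of all genes tested. From 800 to under 1300 bases, as in Exosc1 and Exosc2, 18.6% were enriched and 14.1% depleted. In the next class, which starts at 1300 bases and holds Exosc4 and Exosc6, the shares were 17.7% and 13.2%. For the 3′ UTR, the share enriched was 11.2% under 250 bases, 17.7% from 250 to under 500, 19.3% from 500 to under 1000 and 14.4% at 1000 or more.

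GC content and the motif did not order the subunits in the same way. Exosc5, with 61.2% GC at the 97.5th percentile, did not differ detectably from the input, although 37.2% of the 828 tested genes with at least 60% GC were enriched. Exosc1, at 47.1% GC, was enriched. Exosc9 has the lowest GC of the subunits, 44.5%, and falls among the 4406 tested genes under 45% GC, of which 26.4% were depleted, with a median log2 fold change of −0.555. The motif GGACT occurred at 3.02 per kb in Exosc6 and 2.79 per kb in Exosc4, at the 97.6th and 96.6th percentiles of tested Select transcripts. However, the enriched Exosc1 held 1 match, 0.617 per kb, at the 23.8th percentile, and Exosc10, which fell, held 5, or 1.79 per kb, at the 82.5th. At least 1 match was present in 91.3% of the 15011 tested Select transcripts, with a median of 1.07 per kb. The Spearman rho with the log2 fold change over the 10 transcripts was 0.309 for motif density and 0.479 for GC. It was 0.154 for motif density over the tested Select transcripts, and 0.314 for GC over all tested genes.

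**Figure D4:**
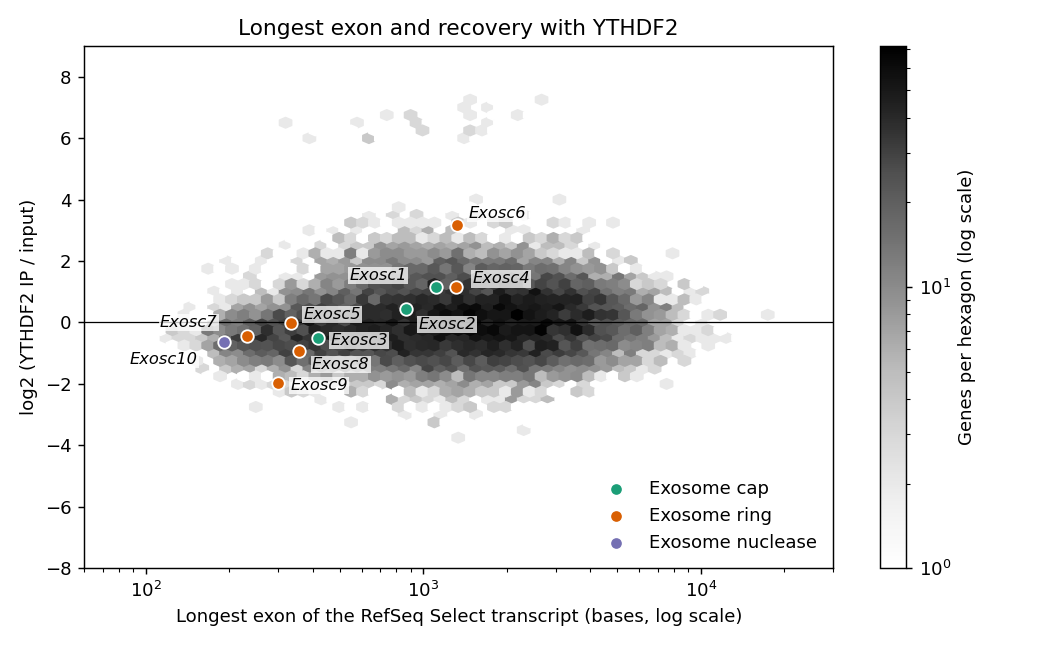
Log2 ratio of YTHDF2 IP to input (vertical axis) against the longest exon of the RefSeq Select transcript (horizontal axis, bases, log scale). Grey hexagons count the 15011 tested genes with such a transcript, and coloured points are the exosome subunits by role. Subunits with a longest exon of 863 bases or more lie above 0, and those of 416 bases or less lie at or below it.

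The other genes of the pathway were taken as 22 nucleases and cofactors. In this list 2 of the 22 were enriched and 6 of the 22 depleted, beside the 15.0% and 13.0% of all genes tested. The median log2 fold change was −0.602, and 16 of the 22 were lower at an adjusted p-value under 0.05 at any fold, beside 28.9% of all genes tested. The count of 6 depends on scaling, as 3 of the 6 (Mtrex, Mphosph6 and Ttc37) lay close to 2-fold and were not called with library totals or scaling to TPM. All 6 have between 38.3% and 44.9% GC, in the class under 45% where 26.4% of tested genes were depleted. Zcchc7, Utp18 and Hbs1l are also under 45% GC and were not called, at log2 fold changes of 0.60, −0.86 and −0.03. With the GC trend removed 1 of the 6 was still depleted, and with the dispersion set to 0.1 also 1.

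Of the catalytic subunits, Dis3, which encodes a processive nuclease of the exosome, was counted 2754 times in the input, 1552 in IP 1 and 1737 in IP 2. The log2 fold change was −0.78 ± 0.089 (SE, edgeR adjusted p = 8.74e-10), short of 2-fold. Dis3l, its cytoplasmic counterpart, was counted 705 times in the input, 798 in IP 1 and 937 in IP 2. At a log2 fold change of 0.26 ± 0.13 (SE, edgeR adjusted p = 0.0948), it did not pass the test, but it passed with library totals (0.35, adjusted p = 0.0262) and with scaling to TPM (0.41, adjusted p = 0.00605), under 2-fold in both. The exosome-independent relative Dis3l2 was at −0.32.

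The nuclear cofactors C1d and Mphosph6 and the helicase gene Mtrex were all lower. C1d, an EXOSC10 cofactor, went from 6640 in the input to 3108 and 2861, 2.29-fold lower. Mphosph6, which tethers the helicase to the exosome, went from 3896 to 1952 and 1933, 2.06-fold lower. Mtrex, which encodes MTR4 itself, went from 3931 to 1960 and 1979, 2.05-fold lower. In all these genes both IP libraries were below the input. Rbm7, the RNA-binding subunit of the NEXT complex that brings promoter transcripts to the exosome, went from 2295 counts to 860 and 848, 2.76-fold lower. Nvl, an AAA ATPase that works with MTR4 in ribosome assembly, went from 2818 counts to 1042 and 1142, 2.65-fold lower. Exons of Fgfr3-ps cover 31.4% of the exonic length of Nvl from the other strand. Reads in that stretch are left out by the counting default, and the part of this overlap in the result was not tested. Without the GC trend, Nvl (−1.12) alone among the depleted genes stayed past 2-fold, and with the dispersion set to 0.1, Rbm7 alone was called (edgeR adjusted p = 0.0449).

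The enriched genes of the list were Pabpn1 and Tent4a. Pabpn1, the nuclear poly(A)-binding protein of the PAXT connection, went from 13074 in the input to 51932 in IP 1 and 51161 in IP 2. This 3.84-fold enrichment (log2 fold change 1.94 ± 0.052 SE, edgeR adjusted p = 1.51e-27) was called under every alternative with a test. Tent4a, a noncanonical poly(A) polymerase, went from 1879 to 4921 and 4924, 2.55-fold higher. Its paralog Tent4b was on the other side of the input, at −0.87 on the log2 scale, with a count of 2235 falling to 1228 and 1282. The call for Tent4a was lost with the dispersion set to 0.1, and Zcchc7, the zinc knuckle subunit of TRAMP, gained one without the GC trend (1.22). In the cytoplasmic Ski complex, which feeds mRNA into the exosome, the scaffold Ttc37 was 2.13-fold lower in IP, from 1640 counts to 787 and 794. Wdr61, the WD repeat subunit of the complex, was also lower in both IP libraries, from 3711 to 2160 and 2165, short of 2-fold (log2 fold change −0.82 ± 0.076 SE, edgeR adjusted p = 4.98e-12). The Ski helicase Skiv2l, at 0.10 ± 0.11 (SE), and the linking factor Hbs1l, at −0.03 ± 0.077 (SE), did not pass the test (edgeR adjusted p = 0.456 and 0.736). Without the GC trend both passed at under 2-fold, Skiv2l with the sign turned (−0.355, adjusted p = 0.00525) and Hbs1l at 0.47 (adjusted p = 2.13e-06). With scaling to TPM, Skiv2l passed at 0.25 (adjusted p = 0.0484).

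**Figure D5:**
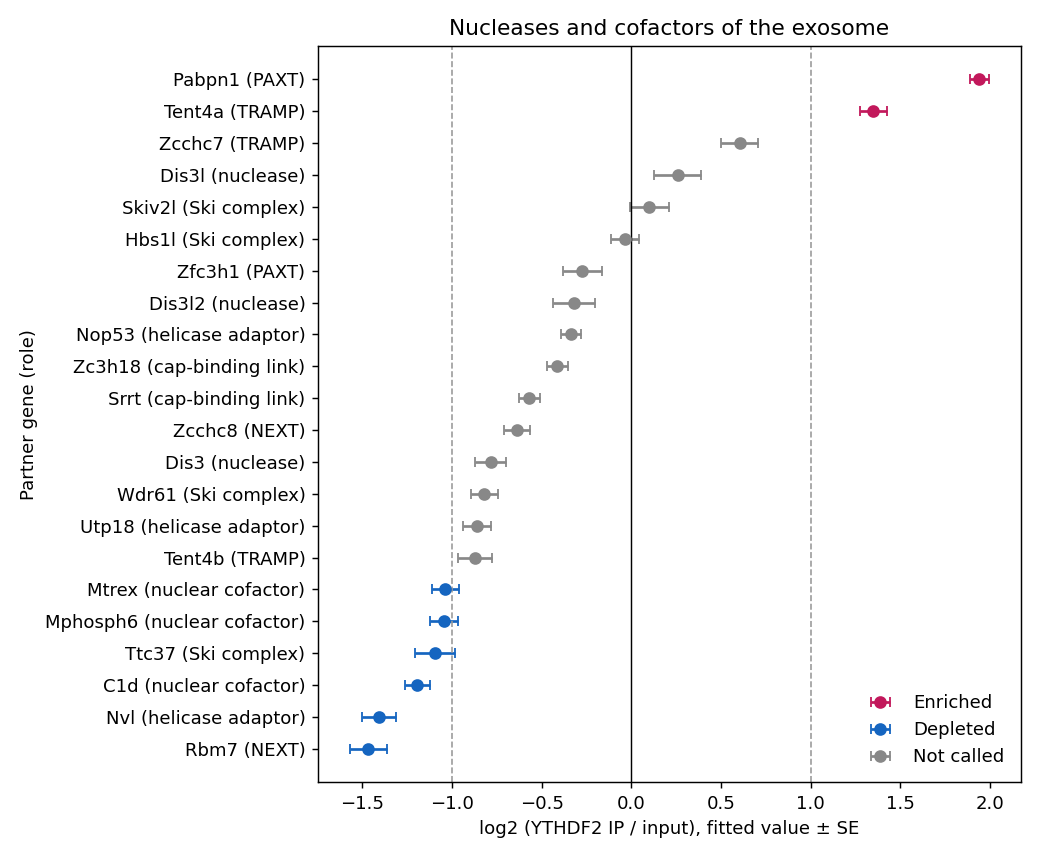
Log2 ratio of YTHDF2 IP to input (horizontal axis, fitted value ± SE) for the 22 nucleases and cofactors of the exosome, ordered by value, with the role of each in brackets. Dashed lines mark a 2-fold difference. Pabpn1 and Tent4a lie to the right of the upper line, and 6 genes lie to the left of the lower one.

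The libraries held between 35259827 and 36986994 counts, and 23646 to 24489 genes had at least 1. All 8 ESC markers examined were abundant in the input, from 16857 counts for Klf4 to 66790 for Dppa5a, and the 7 markers of the 2-cell-like state ranged from 145 counts (Tcstv1) to 31055 (Zscan4d), with Duxf3 at 281. The markers of other cell types that were examined all had fewer input counts than the ESC markers. Col1a2 had 7, Sox17 55 and Cdx2 2, whereas Col1a1 had 75, Gata4 96, Gata6 147, Eomes 922 and Thy1 994. Gata6 was thus close to Tcstv1, the lowest of the 2-cell-like markers.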

How the data were processed

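Per the labels and methods, the authors filtered reads with fastp 0.19.4, aligned them to mm10 with HISAT2 2.2.1 and used DESeq2 1.40.2. The deposited table holds unnormalized counts. Its header shows that featureCounts 2.0.3 summed RefSeq exons by gene, ignoring strand and taking each mate as a read, so sampling noise is larger than the counts imply. By default, reads over more than 1 gene or mapping to several places are left out. The labels describe an IP on Trizol-extracted RNA, the methods one on cleared lysate.

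The 3 libraries were grouped by title, and edgeR 4.0.16 was run in R 4.3.3. Genes kept by filterByExpr (19601 of 49997) were scaled by TMM (factors of 0.957 for the input, 1.02 for each IP library). IP was compared with input by the robust quasi-likelihood F test with Benjamini-Hochberg adjustment over all genes tested. The common dispersion was 0.00538, from 1 residual degree of freedom. SEs come from the log2 fold change and F. Ratios of single libraries add 0.5 to each count. In simulated data for this comparison (18760 genes, dispersion of 0.005), 89.5% of 191 changed genes were called, with 2 false calls. The rate of false calls in the real libraries, where 5479 of 19601 genes were called and the input had no replicate, was not tested. TPM used merged exons. The gene structures and GC content come from RefSeq on GRCm38.p6, with 1 Select transcript a gene (20962 genes). The subunits and the list of 22 partner genes were chosen with earlier results of these data known. All 10 subunits, Dis3, Dis3l and every called partner are named. Dis3l2, Tent4b, Skiv2l, Hbs1l, Wdr61, Utp18 and Zcchc7 were added after their values were seen. Alternatives were other scalings, no filter, DESeq2 1.42.0, a fixed dispersion, halved counts, a removed GC trend and single IP libraries.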

Additional observations from a re-analysis of the deposited data

How the results depend on the processing

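No paired analysis was possible because only 1 input library was analysed here and both IP libraries share it. Neither a second input nor a control IP entered the comparison, and with 1 IP library left out there is no test, so those values are ratios alone and no count over all genes was made. With the fixed dispersion of 0.1, 1577 genes were enriched and 1531 depleted (2936 and 2543 as reported), of which 1358 and 1283 were the same genes, and the calls left were 1 enriched subunit, 1 depleted subunit, 1 enriched partner and 1 depleted partner. Depleted partners numbered 3 with library totals, 3 with scaling to TPM and 1 with the GC trend removed, where 3 partners and 2 subunits were enriched and 2 subunits depleted. The median of the subunits was −0.129 with library totals, −0.0733 with scaling to TPM, −0.201 without a filter and −0.446 without the GC trend. Exosc5, near 0, turned positive with library totals (0.0879), scaling to TPM (0.143) and no filter (0.016), and was between −0.0639 and 0.0509 with single IP libraries. The other 9 subunits kept their direction in all 10 alternatives. The cause was not tested.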
